A study of Mus musculus with 9 samples.

Results

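A total of 605 distal regions of open chromatin had an ATAC-seq peak in all 9 samples of embryonic mouse cochlear duct cells. They were chosen from measured peak presence. The peak lists were merged on the autosomes where peaks lay within 100 bp, which gave 68078 regions, and a region was kept where every list had a peak in it. A kept region was narrower than 2000 bp and overlapped no promoter window, the stretch that begins 1000 bp before the start of a protein-coding transcript and ends 100 bp past it. The 605 regions were 0.889% of all merged regions. They were compared with 53228 other distal regions, which met the same width and promoter limits but had a peak in 2 to 8 samples. Promoter regions with a peak in all 9 samples numbered 4359.

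ATAC-seq marks open chromatin by the cuts of a transposase. The cells came from B6;129S-Sox2tm2Hoch/J embryos, heterozygous for EGFP knocked into the coding region of Sox2, so all groups carry a single intact copy of Sox2. Ducts of a litter were pooled for each replicate and sorted by EGFP, and each library held up to 50000 cells. Sox2-EGFPhigh+ cells, the prosensory progenitors of hair cells and supporting cells, gave 2 samples each at E12, E14.5 and E16. Sox2-EGFP- cells, sorted from the dissected duct as cells without EGFP, gave 1 sample at E14.5 and 2 at E16. Relative to Sox2-EGFPhigh+ cells, the authors found them more accessible at otic fibroblast genes than at roof epithelial genes. The authors propose that otic fibroblasts may be among the sorted cells. Cells of low EGFP were left out of both gates, and EGFP reports Sox2 rather than a lineage. The 3 E16 samples whose cell type tags contradict their titles were grouped by title, and the E16 replicates numbered 1 in both cell types were sequenced in another batch than the rest.

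Distal open regions that many tissues share are known to fall into a few kinds. Some are starts of long noncoding RNAs or of small structural RNAs, whose DNA resembles a gene promoter with a CpG island and sites of Sp1, NFY, NRF1, YY1 or CREB family factors. Others are bound by CTCF, a zinc finger protein that insulates and, with cohesin, holds chromatin loops. Enhancers, by contrast, are known for being open in particular cell types, and Gata3 and Sox2 are known regulators of the prosensory cochlea.

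The sites on which the sequence comparisons turn can be read directly. The regions below held the closest matches to the CTCF consensus within 400 bp centred on the summit, and they are shown since the regions were searched for CTCF in particular. Capitals mark the 20 matched positions, each line reads 5′ to 3′ along the strand of the match in mm9, and the name is the gene with the nearest protein-coding start. The Acot11 and Lag3 lines differ from the consensus at 2 positions and the others at 3.
Acot11, chr4:106511645-106511680, minus strand: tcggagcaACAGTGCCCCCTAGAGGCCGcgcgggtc
Lag3, chr6:124853757-124853792, minus strand: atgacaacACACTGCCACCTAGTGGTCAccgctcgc
Phlda3, chr1:137649784-137649819, minus strand: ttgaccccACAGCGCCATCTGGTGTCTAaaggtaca
Vwa1, chr4:155144512-155144547, plus strand: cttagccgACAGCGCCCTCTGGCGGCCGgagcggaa
Epb4.9, chr14:71017954-71017989, minus strand: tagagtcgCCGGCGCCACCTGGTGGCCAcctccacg
Apol7a, chr15:77189273-77189308, plus strand: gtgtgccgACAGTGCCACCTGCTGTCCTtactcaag
Mki67, chr7:142927455-142927490, plus strand: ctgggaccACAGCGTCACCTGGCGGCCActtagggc

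NFY is a trimeric factor that binds the CCAAT box, a sequence known from promoters. The lines below are exact matches to its 10-base consensus, in capitals, in the 6 highest regions that held one, and they are shown since exact NFY matches, in 57 of the 605 regions, were outnumbered only by those of KLF5, in 148.
Zfp869, chr8:72240994-72241023, minus strand: gggcagtgctAGCCAATCAGaaccttcagg
Fam92a, chr4:12833906-12833935, plus strand: gggaaggcctAGCCAATCAGagtgtagact
Map3k1, chr13:112515763-112515792, minus strand: tgttacgcccAGCCAATGGGctgaggcggg
Scd3, chr19:44322847-44322876, plus strand: gaccccgcgcAGCCAATCAGcgaccgcgct
Scd2, chr19:44358796-44358825, plus strand: gactcctcgcAGCCAATCAGcagccgcgct
Gm14085, chr2:122293535-122293564, minus strand: tagaggcgtcGGCCAATCGGagagtggagg

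The regions had a median width of 952 bp and ranged from 288 to 1893 bp. The summit, taken from the peak lists, lay between genes in 359 regions (59.3%) and in an intron of a protein-coding transcript in 163 (26.9%). It lay in a noncoding transcript in 47 regions, in a coding exon in 22 and in an untranslated region in 14. The nearest protein-coding start was under 2.5 kb away in 57 regions, 2.5 to 10 kb in 146, 10 to 50 kb in 248, 50 to 100 kb in 96 and farther in 58. Chromosome 19 held the fewest regions, 17, and chromosome 7 the most, 48.

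The limits of the rule were near some regions. The widest region kept was 1893 bp (chr4:106511281-106513173, upstream of Acot11), and the narrowest left out for its width was 2134 bp (chr11:59927122-59929255, nearest to Rai1). The region nearest to a promoter window touched it without overlap (chr2:126378244-126379427, Slc27a2), whereas a region nearest to Mcm9 was left out for an overlap of 15 bp. In all, 16 regions lay within 500 bp of such a window. A peak in exactly 8 samples was found in 938 distal regions, of which 700 (74.6%) missed only the list of E12 replicate 2, the shortest.

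The lists held between 7577 peaks at E12 replicate 2 and 66332 at E14.5 Sox2-EGFPhigh+ replicate 1. Peak height is given as fold enrichment, the pileup at the summit over the local background of the same sample. The median fold enrichment of the 605 regions was between 5.07 in the E14.5 Sox2-EGFP- sample and 11.2 in E14.5 Sox2-EGFPhigh+ replicate 1. Ranks in a list were taken by −log10 p, the significance of a peak in its sample. In each list these regions had a median rank between the 58.0th and the 92.8th percentile. In E12 replicate 2, 247 of the 605 lay below the 50th percentile of the list, and in E16 Sox2-EGFPhigh+ replicate 2, 4 did. Regions in all lists therefore include low peaks of the short lists and high peaks of the long ones.

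The 605 regions were rich in CpG dinucleotides. A region was called CpG-island-like where the 400 bp around its summit held at least 50% G and C and at least 0.6 of the CpG expected from its bases. By this measure 303 regions (50.1%) were CpG-island-like, against 4.65% of the other distal regions and 91% of the promoter regions in all 9 samples. The share rose with the number of samples, from 1.6% of distal regions with a peak in 2 samples to 41.8% of those with a peak in 8. Mean GC content was 61.0% in the 605 regions, 50.1% in the other distal regions and 66.7% in the promoter regions.

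The same comparison was made within each sample, between its peaks in the 605 regions and its peaks in the other distal regions. The CpG-island-like share was 48.7% ± 1.17 (SD, n = 9 samples) in the 605 regions and 10.01% ± 3.93 in the others. The difference was 38.7 percentage points ± 3.90 and was higher in 9 of 9 samples (exact two-sided sign-flip permutation test, p = 0.003906, the smallest that 9 samples allow). GC content differed by 8.36 percentage points ± 1.56 in the same direction in 9 of 9 samples (exact permutation p = 0.003906). The same 605 regions enter in every sample, so these p-values measure the spread between samples and not between regions.

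**Figure D1:**
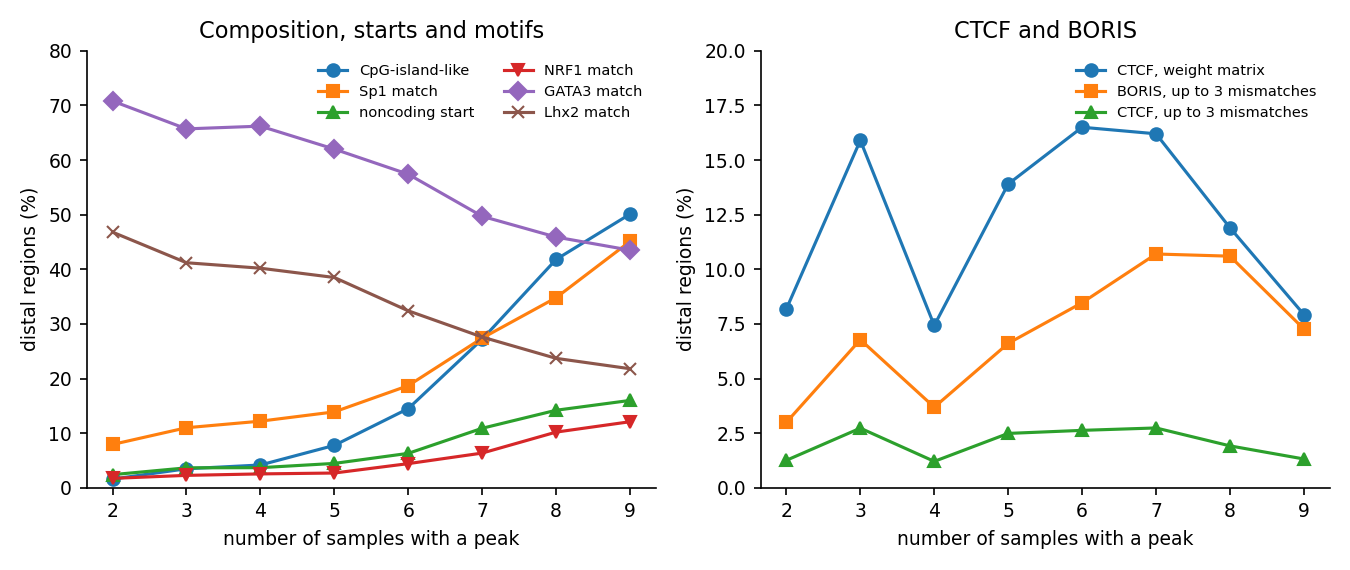
Share of distal regions (%) by the number of samples with a peak (2 to 9), for CpG-island-like sequence, noncoding starts and motif matches (left panel) and for CTCF and the related BORIS motif (right panel). CpG-island-like sequence rises from 1.6% to 50.1% and GATA3 matches fall from 70.8% to 43.5%, whereas CTCF by a weight matrix peaks at 16.5% in regions with 6 samples and is 7.93% in those with 9. The matrix was built from regions with 2 to 8 samples.

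Consensus motifs were searched on both strands of the 400 bp around each summit, with 1 mismatch allowed for every 6 positions, and the share of peaks with a match was compared within each sample as above. Of 40 motifs, 21 (52.5%) were more frequent and 15 (37.5%) were less frequent in the 605 regions at an adjusted p under 0.05 (exact sign-flip permutation tests, Benjamini-Hochberg over the 40 motifs). Sp1, NFY, NRF1, YY1 and CRE, known from promoters, were among the more frequent, and GATA3, Lhx2 and Hoxa9, sites of developmental factors, among the less frequent. Other promoter and developmental motifs went the opposite way, and no grouping of the motifs was tested. The same 605 regions again enter in every sample. The sign-flip p-values here and below therefore measure the spread between samples and not between regions. The lowest adjusted p the 9 samples gave was 0.00504. Beside each, the share among the promoter regions in all 9 samples is given as a scale.

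Sp1 (GGCCCCGCCCCC), the factor of the GC box, had a match in 43.8% ± 1.09 of peaks in the 605 regions and in 15.2% ± 2.76 of the others (n = 9 samples, adjusted exact permutation p = 0.00504). Of the promoter regions 68.9% held it. KLF5, whose consensus overlaps that of Sp1, was matched in 72.0% and 43.5%. NFY was matched in 31.3% ± 1.01 and 19.2% ± 1.43 (adjusted exact permutation p = 0.00504, n = 9 samples), and in 38.2% of promoter regions. An exact NFY match without any mismatch was found in 9.16% of peaks in the 605 regions and 1.46% of the others. NRF1 (CTGCGCATGCGC), an activator of genes for mitochondria, was matched in 11.5% and 3.47%. YY1 (CAAGATGGCGGC), a zinc finger factor of promoters and enhancers, was matched in 7.05% and 3.53%, and CRE, the site of CREB family factors, in 6.87% and 2.86%. All of these were higher in 9 of 9 samples.

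Rarer promoter motifs went in both directions, with few regions behind them. The TATA-Box was matched in 29 regions and the ZNF143|STAF motif in 17, or 5.64% and 2.85% of peaks against 10.1% and 3.97%, lower in 9 of 9 samples (adjusted exact permutation p = 0.00504 in each). The others named here were more frequent. HINFP, a regulator of histone genes, was matched in 60 regions, ELF1 in 59, USF1 in 56 and GABPA in 30. Ronin, GFY-Staf and ZBTB33 were called more frequent on 6, 5 and 3 regions. The RFX motif (CGGTTGCCATGGCAAC) and the X-box motif (GGTTGCCATGGCAA), which overlap and are bound by the ciliogenic RFX factors, were matched in 6 and 17 regions, or 1.01% and 2.61% of peaks against 0.511% and 1.31%. Among CpG-island-like regions alone this direction turned, with RFX in 0.330% against 0.906% and X-box in 0.770% against 1.20%.

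Motifs of developmental factors also went in both directions. GATA3 (AGATAA followed by C or G and then A or G), the site of a zinc finger factor needed for the inner ear, was matched in 43.5% ± 0.797 of peaks in the 605 regions against 62.3% ± 5.09 (n = 9 samples, adjusted exact permutation p = 0.00504). The homeodomain motifs Six2, Lhx2 (TAATTAGN) and Hoxa9 were matched in 40.5% against 54.8%, 22.4% against 37.9% and 9.13% against 17.9%. LEF1, the site of Wnt effectors, was matched in 4.79% against 8.59%, and Foxo1 (CTGTTTAC) in 21.8% against 31.7%. These were lower in 9 of 9 samples. Sox2 was matched in 8.89% against 11.2%, lower in 7 of 9 samples (adjusted exact permutation p = 0.02604). The Sox2 call was lost without E14.5 Sox2-EGFPhigh+ replicate 2, either E16 Sox2-EGFPhigh+ sample or E16 Sox2-EGFP- replicate 1, with differences from -2.371 to -1.498 percentage points. Sox9 was matched in 4.98% against 5.83% (adjusted exact permutation p = 0.2043), a difference that did not pass the test. The differences of both motifs split by cell type. For Sox9 they were -3.162 to -0.2483 percentage points in Sox2-EGFPhigh+ samples and 0.7055 to 1.737 in Sox2-EGFP- samples. For Sox2 they were -5.9 to -1.965 and -0.0961 to 0.3656. Six2 was lower in both, by -20.62 to -13.44 and -7.873 to -7.528. This split was not tested. EBF, the site of early B-cell factors, was more frequent, at 39.7% against 36.6% in 9 of 9 samples (adjusted exact permutation p = 0.00504). NF1 and GRHL2 were more frequent too, at 6.98% against 6.05% and 1.07% against 0.5998%. For EBF the sign turned when no mismatch was allowed, with an exact match in 2 regions. Exact NF1 and GRHL2 matches were absent from the 605 regions and found in 0.08352% and 0.005105% of the others, too few to read a sign.

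**Figure D2:**
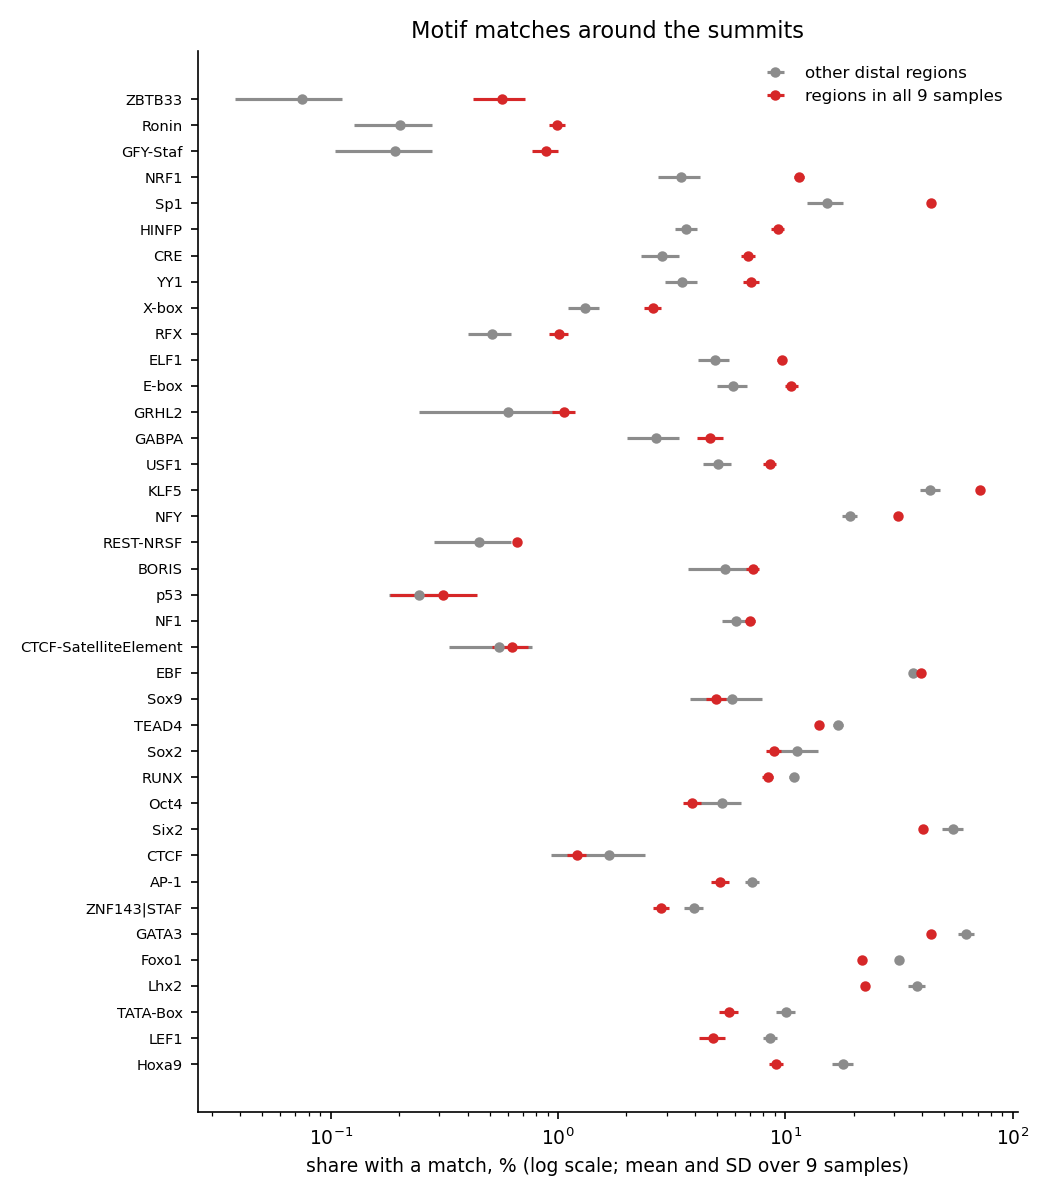
Share of peaks with a motif match (%, log scale) in the 605 regions (red) and in the other distal regions (grey), as points with bars for the mean and SD over 9 samples, ordered by the ratio of the shares. Sp1 stands at 43.8% against 15.2% and GATA3 at 43.5% against 62.3%, and the bars of CTCF overlap. The PSE motif, with no match in the 605 regions, is not drawn.

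Since a CpG-rich sequence holds GC-rich motifs more often, each motif was also compared within CpG-island-like regions and within the remaining, CpG-poor regions. Among CpG-poor regions Sp1 was matched in 25.1% against 11.7% and NFY in 27.9% against 19.4%. Among CpG-island-like regions Sp1 was matched in 62.5% against 45.7% and NFY in 34.8% against 17.4%. These were higher in 9 of 9 samples in each class (adjusted exact permutation p = 0.006793 in each). GATA3 was lower in both classes, at 51.7% against 65.0% in CpG-poor and 35.5% against 37.7% in CpG-island-like regions. Lhx2 and Hoxa9 were lower in both classes too.

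Some motifs did not keep their direction within a class. Sox2 was matched in 11.9% of both groups among CpG-poor regions (adjusted exact permutation p = 0.9414), and among CpG-island-like regions it was more frequent, 5.94% against 4.80% in 9 of 9 samples (adjusted exact permutation p = 0.006793). Six2 was matched in 55.5% against 57.3% of CpG-poor regions (adjusted exact permutation p = 0.3495), which did not pass the test, and in 25.5% against 32.3% of CpG-island-like regions, which did. TEAD4, the site of Hippo pathway effectors, was less frequent overall (14.1% against 17.1%) and more frequent among CpG-poor regions (20.1% against 17.9%). NF1 was matched in 10.5% against 6.46% of CpG-poor regions, and GRHL2, the site of an epithelial factor, in 2.13% against 0.631%. No CpG-island-like region held a GRHL2 match, and 7 CpG-poor regions did. Within each class 19 of the 40 motifs were more frequent, and 12 in CpG-poor and 13 in CpG-island-like regions were less frequent.

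Matches were also set against the DNA beside the regions, 5000 bp from the summits. An Sp1 match was found in 45.1% of the 605 regions and in 5.37% of their flanks, NFY in 32.1% and 15.1%, and EBF in 40.7% and 21.7%. GATA3 was found in 43.5% of the regions and in 70.0% of the flanks, and Lhx2 in 21.8% and 51.5%. A match to a short consensus is a description of letters and not of a bound site.

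CTCF matches were few in the 605 regions. The consensus with up to 3 mismatches was found in 8 regions (1.32%), the 7 printed above and an intronic region of Camk2a, in none of the flanks described above and in 0.138% of the promoter regions. Within samples it was matched in 1.21% ± 0.117 of peaks in the 605 regions and in 1.67% ± 0.743 of the others. The difference of -0.460 percentage points ± 0.724 did not pass the test and was positive in 3 of 9 samples (exact sign-flip permutation p = 0.1055, n = 9). A CTCF weight matrix was met in 7.77% against 10.1% (exact permutation p = 0.1094, n = 9). It was built from 954 consensus matches in the other distal regions and set to pass 1% of the flanks of those regions. Since it came from the comparison regions, it can favour them, and its shares are not an even comparison. With 2 or 4 mismatches, a window of 200 bp or the whole region, the share was lower in the 605 regions and passed the test. With the 5000 highest peaks of each list the sign turned, with 1.12% against 0.692% (exact permutation p = 0.01172, n = 9).

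By the number of samples, the weight matrix share was 8.19% in distal regions with a peak in 2 samples, 15.9% with 3, 7.43% with 4, 13.9% with 5, 16.5% with 6, 16.2% with 7, 11.9% with 8 and 7.93% with 9. The share did not rise or fall steadily. BORIS, the paralog of CTCF with a related and overlapping motif, was matched in 7.22% against 5.43% (adjusted exact permutation p = 0.009191, n = 9 samples), higher in 8 of 9 samples. In a window of 200 bp the BORIS difference was 0.3347 percentage points and did not pass the test (unadjusted exact permutation p = 0.4688), and without mismatches its sign turned. Among CpG-island-like regions alone BORIS was less frequent, 8.80% against 10.7%.

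The few regions with a CTCF consensus match ranked lower by fold enrichment than the rest of the 605. Their median rank within the 605 regions of a sample was 12.3 percentile points ± 5.77 (SD, n = 9 samples) below that of regions without a match, in 9 of 9 samples (exact sign-flip permutation p = 0.003906). Between 6 and 8 regions per sample, drawn from the same 8, stood behind this. The p-value therefore measures the spread between samples and not between regions. With −log10 p as height the difference had the same direction but missed the threshold. With the weight matrix, which 42 to 49 regions per sample met, the difference was 2.83 percentile points ± 7.81 in the other direction and did not pass the test (exact permutation p = 0.3086, n = 9). The consensus effect was -10.5 points in the 4 later Sox2-EGFPhigh+ samples and -14.4 in the 3 Sox2-EGFP- samples, a difference of 3.86 (exact permutation p = 0.5429, where 0.02857 is the smallest possible).

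The fold enrichment of the Phlda3 region (chr1:137649351-137649869) was the highest among those with a printed CTCF site. It was 10 and 7.46 at E12, 15.8 and 7.32 in E14.5 Sox2-EGFPhigh+ cells, 6.09 in E14.5 Sox2-EGFP- cells, 11.7 and 13.4 in E16 Sox2-EGFPhigh+ cells and 13.3 and 7.63 in E16 Sox2-EGFP- cells. The cell types overlapped. For the Lag3 region it was 4.51 and 4.35, 7.59 and 3.55, 3.58, 6.75 and 7.90, and 6.18 and 4.71 in the same order, which also overlapped.

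Noncoding starts were frequent. A region was counted where it overlapped the same window set around the start of a transcript that is not protein coding. This held for 97 of the 605 regions (16%) and for 3.56% of the other distal regions. A wider region meets such a window more readily. The median width was 952 bp in the 605 regions and 436 bp in distal regions with a peak in 2 samples. Distal regions with a peak in 8 samples, with a median width of 886 bp, had a share of 14.2%. The part of width in the difference was not tested. Within samples the shares were 16.03% and 5.47% ± 1.13, with a difference of 10.6 percentage points ± 1.13 that was positive in 9 of 9 samples (exact sign-flip permutation p = 0.003906, n = 9). The difference was 4.30 points among CpG-poor regions (exact permutation p = 0.003906, n = 9). Among CpG-island-like regions it was 5.40 points, in the same direction (exact permutation p = 0.003906, n = 9). These p-values too measure the spread between samples and not between regions.

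Of the 97 regions, 72 lay at the start of at least 1 noncoding gene and 25 only at noncoding transcripts of protein-coding genes. Long intergenic noncoding RNA genes accounted for 39 regions, 6.45% of the 605 against 0.502% of the other distal regions. Processed transcripts accounted for 14, pseudogenes for 10, snoRNA genes for 8, miRNA genes for 7 and snRNA genes for 3. Small RNA genes together, miRNAs included, had a start in 19 regions, 3.14% of the 605 against 0.436% of the others. The miRNA share was 1.16% against 0.171%. These shares over regions were not adjusted for width, are descriptions and were not tested by type.

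The 7SK region (chr9:78023051-78024154, upstream of Gsta4) held starts of 7SK, the small RNA that holds the elongation factor P-TEFb inactive, and of the lincRNA C920006O11Rik. Its fold enrichment was 6.97 and 6.50 at E12, 10.9 and 7.46 in E14.5 Sox2-EGFPhigh+ cells, 7.05 in E14.5 Sox2-EGFP- cells, 9.25 and 7.68 in E16 Sox2-EGFPhigh+ cells and 9.02 and 8.18 in E16 Sox2-EGFP- cells. The cell types overlapped. Its log2 difference between cell types was -0.20 ± 0.138 (SE, limma, adjusted p = 0.6346). The line below gives 240 bp around its summit on the plus strand, with the match to Sp1 in capitals.
7SK and C920006O11Rik, chr9:78023633-78023872: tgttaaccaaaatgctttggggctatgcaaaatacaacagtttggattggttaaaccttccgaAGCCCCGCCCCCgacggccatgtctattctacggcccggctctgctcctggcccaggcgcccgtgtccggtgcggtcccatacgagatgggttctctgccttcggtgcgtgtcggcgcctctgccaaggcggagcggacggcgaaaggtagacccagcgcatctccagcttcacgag

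Starts of 7 miRNA genes lay in these regions, among them that of Mir210. Its mature forms in RefSeq (GRCm38.p6) are given to identify the RNA, with the seed, bases 2 to 8, in capitals.
mmu-miR-210-3p: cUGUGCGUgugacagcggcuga
mmu-miR-210-5p: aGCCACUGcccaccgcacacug

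The Mir210 region (chr7:148407141-148408402, 5.20 kb from the start of Rassf7) lies at the gene of the hypoxia-induced miRNA miR-210. Its fold enrichment was 6.15 and 5.86 at E12, 12.2 and 5.95 in E14.5 Sox2-EGFPhigh+ cells, 5.48 in E14.5 Sox2-EGFP- cells, 10.8 and 9.84 in E16 Sox2-EGFPhigh+ cells and 10.9 and 8.80 in E16 Sox2-EGFP- cells. The cell types overlapped, and the log2 difference between them was -0.01 ± 0.129 (SE, limma, adjusted p = 0.9866). The region was CpG-island-like and held 3 Sp1 matches, in capitals below.
Mir210, chr7:148407678-148407917: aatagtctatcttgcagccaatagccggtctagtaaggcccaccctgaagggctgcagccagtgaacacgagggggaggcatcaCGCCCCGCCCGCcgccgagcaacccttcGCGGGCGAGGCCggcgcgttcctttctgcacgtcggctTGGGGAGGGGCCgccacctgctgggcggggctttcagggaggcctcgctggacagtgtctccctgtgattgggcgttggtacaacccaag

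The other structural RNA starts were of the spliceosomal RNAs U2 (chr11:101518995-101520548), U6 and U6atac and of small nucleolar RNAs that guide RNA modification, among them SNORD60, SNORA76 with Snord104, and Snord49a with Snord49b. The U2 region had fold enrichments between 6.44 and 10.8 over the 9 samples and the SNORD60 region, in an intron of Rab26, between 5.90 and 9.88. Among noncoding starts outside the structural RNAs, the Fam92a region held the start of the lincRNA Gm11818, 735 kb from the nearest protein-coding start, with fold enrichments from 8.85 to 16.9. The Map3k1 region (chr13:112515070-112516395) held those of Gm15287 and Gm15488, with 7.48 to 10.9, and both regions carry an NFY site printed above. The Zbtb20 region held the start of the lincRNA 4932412D23Rik and ranged from 6.69 to 9.36. In none of these did the cell types pass the test.

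CpG-island-like and CpG-poor regions differed in place. A noncoding start was found in 72 of the 303 CpG-island-like regions (23.8%) and in 25 of the 302 CpG-poor regions (8.28%). The median distance to the nearest protein-coding start was 13.8 kb and 25.7 kb. An intron held the summit in 53 and 110 regions. The median over all 605 regions was 18.8 kb, against 32.2 kb in the other distal regions. Within samples the median log10 distance in bp was 4.27 against 4.48 ± 0.0409, lower in 9 of 9 samples (exact sign-flip permutation p = 0.003906, n = 9). Among CpG-island-like regions alone the direction turned, with 4.14 against 4.05 (exact permutation p = 0.007812, n = 9).

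**Figure D3:**
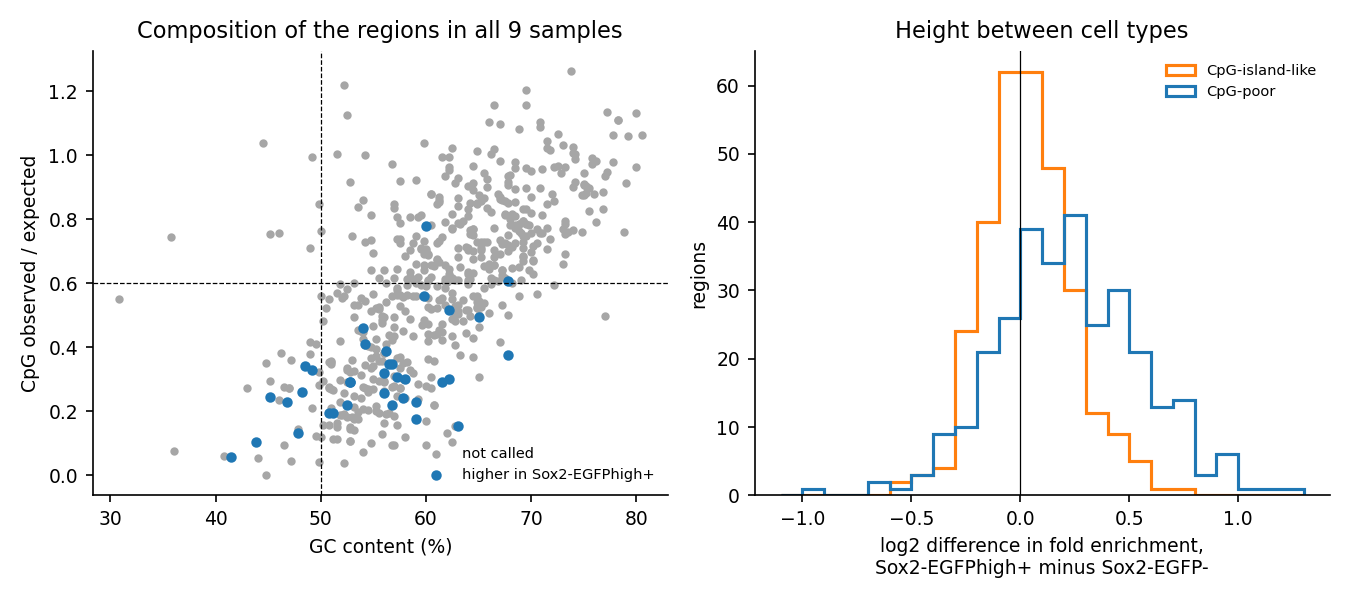
Left, GC content (%) against the ratio of observed to expected CpG in the 400 bp around the summit of each of the 605 regions, with dashed lines at 50% and 0.6 and the 35 regions called higher in Sox2-EGFPhigh+ cells in blue. Right, number of regions by log2 difference in fold enrichment between cell types (E14.5 and E16), where the 303 CpG-island-like regions have a median of 0.03 and the 302 CpG-poor regions of 0.21.

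Presence in all samples did not make the regions equal in height. Fold enrichment was compared between 4 Sox2-EGFPhigh+ and 3 Sox2-EGFP- samples of E14.5 and E16, with stage as a term, over all 4970 regions with a peak in every sample (limma after quantile normalization). Of the 605 regions, 35 were higher in Sox2-EGFPhigh+ cells (5.79%) at an adjusted p under 0.05, against 65 of the 4970 (1.31%), and none was lower, against 4 of the 4970 (0.0805%). Among the promoter regions 30 were higher (0.688%). At an unadjusted p under 0.05, 152 of the 605 and 578 of the 4970 differed. All 4 later Sox2-EGFPhigh+ samples were above all 3 Sox2-EGFP- samples in 52 of the 605 regions (8.6%) and in 1.85% of the 4970. The later Sox2-EGFPhigh+ lists held 22962 to 66332 peaks and the Sox2-EGFP- lists 23302 to 23899. The authors also report the share of reads in peaks. Among the later samples it was lowest in E14.5 Sox2-EGFPhigh+ replicate 2. In the other later Sox2-EGFPhigh+ samples it was above that of every Sox2-EGFP- sample. The part of library quality in the differences between cell types was not tested. The median log2 difference of the 605 was 0.09, against -0.02 over all 4970. All 4970 had to have a peak in both E12 lists, the shortest and both of Sox2-EGFPhigh+ cells. This favours regions high in those cells, so the direction of the calls is not independent of the rule. The part of the rule in it was not tested.

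The 35 regions were mostly CpG-poor and, by the median, far from protein-coding starts. Of them 33 were CpG-poor and 2 were CpG-island-like, or 10.9% of the 302 and 0.66% of the 303. None lay at a noncoding start. Their median distance to a protein-coding start was 57.9 kb. Without both E16 replicates numbered 1, the samples of the other batch, 12 regions were called, against 18 of the 4970, and with E16 alone 31, against 65. The count was 84, with 9 lower, without E14.5 Sox2-EGFPhigh+ replicate 2, against 188 and 50 of the 4970. It was 11 without E16 Sox2-EGFPhigh+ replicate 2 (19 of the 4970), 15 without the E14.5 Sox2-EGFP- sample (28) and 20 without E16 Sox2-EGFP- replicate 1 (34). With stage and replicate number as a block, 62 were higher and 3 lower, against 115 and 18 of the 4970. Same-numbered samples of a stage may come from 1 litter, since some Sox2-EGFP- cells were sorted alongside, but the labels do not tie them.

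The Clic4 region (chr4:134853854-134854637), between genes and 25.5 kb from the start of Clic4, a chloride channel family gene, had the smallest adjusted p. Its fold enrichment was 8.26 and 5.26 at E12, 16 and 6.68 in E14.5 Sox2-EGFPhigh+ cells, 3.29 in E14.5 Sox2-EGFP- cells, 10.7 and 12.4 in E16 Sox2-EGFPhigh+ cells and 4.09 and 4.10 in E16 Sox2-EGFP- cells. Every Sox2-EGFPhigh+ sample, E12 included, was above every Sox2-EGFP- sample. The log2 difference was 1.22 ± 0.146 (SE, limma, adjusted p = 9.153e-05).

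The Epha7 region (chr4:28367052-28367740) lay 373 kb from the start of Epha7, an Eph receptor of cell guidance. Its fold enrichment was 6.16 and 5.62 at E12, 15.9 and 8.89 in E14.5 Sox2-EGFPhigh+ cells, 3.79 in E14.5 Sox2-EGFP- cells, 11.5 and 11.6 in E16 Sox2-EGFPhigh+ cells and 5.02 and 4.50 in E16 Sox2-EGFP- cells. The groups did not overlap, and the log2 difference was 1.10 ± 0.132 (SE, limma, adjusted p = 9.153e-05).

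The Ccrn4l region (chr3:50960691-50961463), 67.3 kb from the start of the gene for nocturnin, had 5.29 and 6.82 at E12. It had 13.1 and 5.84 in E14.5 Sox2-EGFPhigh+ cells, 3.40 in E14.5 Sox2-EGFP- cells, 9.82 and 11.8 in E16 Sox2-EGFPhigh+ cells and 5.88 and 4.17 in E16 Sox2-EGFP- cells. Its lowest later Sox2-EGFPhigh+ value, 5.84, was just below the highest Sox2-EGFP- value, 5.88, from another stage. The log2 difference was 0.91 ± 0.143 (SE, limma, adjusted p = 0.001733), and the call was lost without normalization (limma, adjusted p = 0.08613).

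The Nr2f1 region (chr13:78302160-78303303) lay in an intron of Fam172a, 33.1 kb from the start of Nr2f1, a nuclear receptor gene needed for the cochlea. Its fold enrichment was 4.41 and 6.06 at E12, 12.8 and 8.16 in E14.5 Sox2-EGFPhigh+ cells, 6.14 in E14.5 Sox2-EGFP- cells, 11.6 and 12.1 in E16 Sox2-EGFPhigh+ cells and 4.91 and 5.26 in E16 Sox2-EGFP- cells. The later samples did not overlap between cell types, while the E12 values lay at the level of Sox2-EGFP- cells. The log2 difference was 0.67 ± 0.159 (SE, limma, adjusted p = 0.03463). It was 1 of the 2 CpG-island-like regions called.

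The lines below give 240 bp around the summits of these 4 regions on the plus strand, with matches to GATA3, Sox2, Sox9 and TEAD4 in capitals, since these are motifs of developmental factors compared above. The Ccrn4l line holds 4 GATA3 matches and 1 of TEAD4, the Epha7 line 1 of GATA3, and the Nr2f1 and Clic4 lines none of the 4 motifs.
Clic4, chr4:134854129-134854368: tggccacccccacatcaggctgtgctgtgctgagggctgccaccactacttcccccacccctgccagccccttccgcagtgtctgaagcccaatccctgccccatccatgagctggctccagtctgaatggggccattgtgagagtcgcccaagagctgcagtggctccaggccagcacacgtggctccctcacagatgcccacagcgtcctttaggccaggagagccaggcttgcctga
Epha7, chr4:28367357-28367596: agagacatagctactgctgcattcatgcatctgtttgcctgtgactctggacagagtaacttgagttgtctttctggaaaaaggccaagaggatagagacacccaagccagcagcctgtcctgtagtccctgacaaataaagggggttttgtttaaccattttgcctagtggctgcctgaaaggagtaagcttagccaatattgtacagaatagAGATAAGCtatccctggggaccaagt
Ccrn4l, chr3:50960899-50961138: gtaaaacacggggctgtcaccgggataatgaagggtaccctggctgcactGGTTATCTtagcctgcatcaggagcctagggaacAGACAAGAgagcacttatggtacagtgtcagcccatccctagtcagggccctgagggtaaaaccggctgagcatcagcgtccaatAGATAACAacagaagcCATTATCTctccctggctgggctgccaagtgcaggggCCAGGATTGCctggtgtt
Nr2f1, chr13:78302370-78302609: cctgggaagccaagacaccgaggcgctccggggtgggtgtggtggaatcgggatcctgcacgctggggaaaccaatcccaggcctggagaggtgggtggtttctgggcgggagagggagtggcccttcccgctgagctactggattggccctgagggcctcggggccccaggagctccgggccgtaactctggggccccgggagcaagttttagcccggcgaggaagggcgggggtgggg

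Tmem229b, Gm9887, Serbp1, Gm10240 and Nedd4l named the other regions of the 8 smallest adjusted p-values, with log2 differences from 0.86 (Gm9887) to 1.13 (Tmem229b). The Tmem229b region (chr12:80116924-80117829) ranged from 7.97 to 14.9 in later Sox2-EGFPhigh+ samples and from 3.86 to 4.72 in Sox2-EGFP- samples. Among the remaining regions, named after their values were seen, were those in introns of Sox5 (log2 0.78) and Vgll4 (0.80) and near Foxp4 (0.79) and Myh9 (0.94). Sox5 is a Sox factor without an activation domain, Vgll4 a cofactor that competes with YAP for TEAD factors, and Myh9 encodes nonmuscle myosin heavy chain and is a deafness gene.

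**Figure D4:**
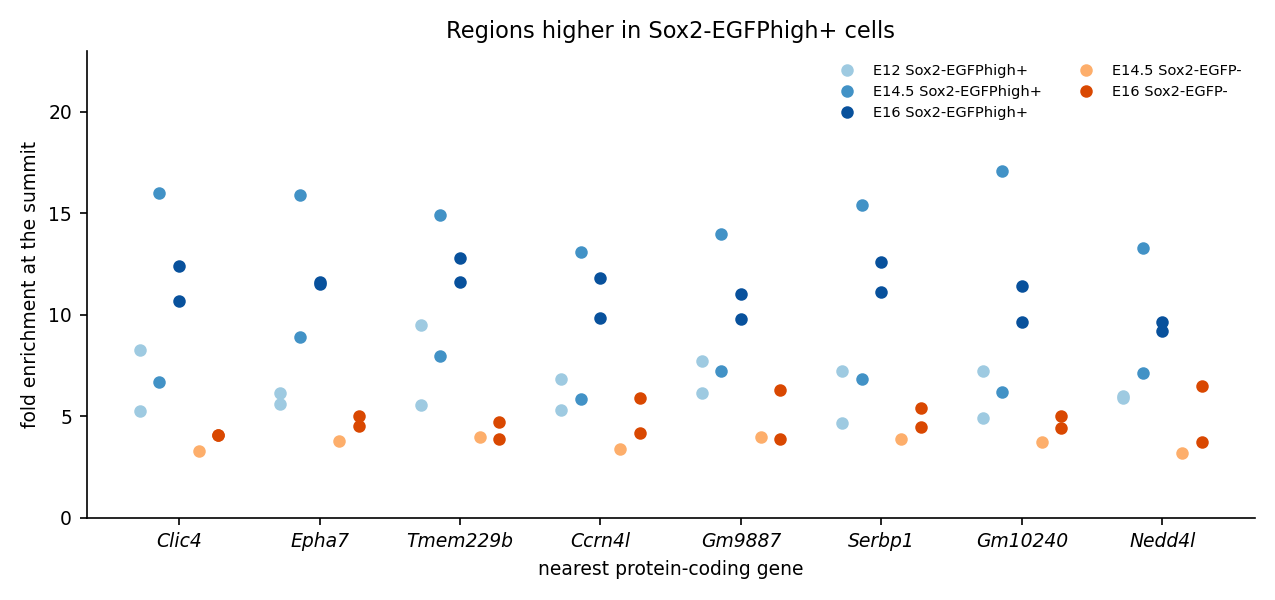
Fold enrichment at the summit in each of the 9 samples for the 8 regions with the smallest adjusted p between cell types, named by the nearest protein-coding gene. Points are samples, blue for Sox2-EGFPhigh+ and orange for Sox2-EGFP- cells, darker with stage. At Clic4 the Sox2-EGFP- samples sit between 3.29 and 4.10 and the Sox2-EGFPhigh+ samples between 5.26 and 16.

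Stage was compared in Sox2-EGFPhigh+ cells alone, 4 later samples against 2 at E12. Of the 605 regions 3 were higher later (adjusted p under 0.05 by limma, against 0.302% of the 4970 regions) and none was lower (against 0.0201%). At an unadjusted p under 0.05, 123 of the 605 and 936 of the 4970 differed, which is about the same share. The E12 lists are the shortest, and stage and library cannot be told apart there. All 3 regions lost the call when either E16 Sox2-EGFPhigh+ sample was left out, and none of the 605 or of the 4970 passed then. Without E14.5 Sox2-EGFPhigh+ replicate 2, 14 were higher and 20 lower, against 122 and 127 of the 4970, and without E12 replicate 1, 12 and 6, against 119 and 44. Without E14.5 Sox2-EGFPhigh+ replicate 1, 1 was higher, against 12 of the 4970, and without E12 replicate 2, 4 were higher and 4 lower, against 37 and 6.

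The region nearest to Gm11273 (chr13:21597763-21598614), at the start of the pseudogene Zfp389, had a fold enrichment of 4.88 and 4.94 at E12, 17.6 and 8.15 at E14.5 and 16.3 and 13.9 at E16. Every later Sox2-EGFPhigh+ sample was above the E12 samples, and the Sox2-EGFP- samples, at 6.22, 12.2 and 7.53, were too. The log2 difference was 1.05 ± 0.153 (SE, limma, adjusted p = 0.009524). The other regions higher later were nearest to Ccnc, which encodes cyclin C (log2 0.75, adjusted p = 0.03876 by limma), and to Zfp324 (log2 0.76, adjusted p = 0.04215 by limma).

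Genes of fixed lists near the regions were counted where a region lay within 100 kb of the gene. Of 21281 autosomal protein-coding genes, 2096 (9.85%) had such a region. Of 51 prosensory and otic regulators 12 (23.5%) had one, among them Cdkn1b, Fgfr1, Hey1, Id1, Id2, Mycn, Nr2f1, Sall4, Tbx1 and Zfhx3. Of 41 deafness genes 4 (9.76%) had one, namely Actg1, Espn, Grhl2 and Whrn. Of 75 genes of loci known for imprinting or CTCF-bound insulators 3 (4%) had one, namely H19, Igf2 and Peg3, and of 8 genes of cohesin and CTCF none. Sox2, Atoh1 and Gata3 were not among the genes with a region. The counts are descriptions and were not tested.

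Id2, an inhibitor of basic helix-loop-helix factors, had regions on both sides. That 3.18 kb downstream of its start (chr12:25777155-25778546) was CpG-poor with fold enrichments from 3.10 to 5.29, and that 2.83 kb upstream (chr12:25783365-25784006) was CpG-island-like with 3.35 to 6.68. Fgfr1, a receptor needed for the prosensory domain, had an intronic region (chr8:26646951-26648177) with 3.98 to 8.52.

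H19 and Igf2, neighbouring imprinted genes, shared a region (chr7:149796609-149797861) 32.6 kb from H19 and 38.8 kb from Igf2. Its fold enrichment was 8.12 and 5.74 at E12, 11.8 and 4.65 in E14.5 Sox2-EGFPhigh+ cells, 4.71 in E14.5 Sox2-EGFP- cells, 7.89 and 9.38 in E16 Sox2-EGFPhigh+ cells and 6.98 and 4.98 in E16 Sox2-EGFP- cells. The cell types overlapped. It held no CTCF consensus match. The region in an intron of Peg3 (chr7:6680003-6681780) was even across samples, from 3.83 to 5.51, and its log2 difference was -0.12 ± 0.169 (SE, limma, adjusted p = 0.8258).

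The highest regions were of another kind. Those nearest to Filip1l, Pxmp3, Axin2, Cdk8, Txndc11 and Limd1 had a mean rank over samples of at least the 99.95th percentile of −log10 p. The Filip1l region (chr16:57391226-57391880, intronic) had fold enrichments of 21.9 and 24.7 at E12, 25.4 and 18.3 in E14.5 Sox2-EGFPhigh+ cells, 15.6 in E14.5 Sox2-EGFP- cells, 26.8 and 23.3 in E16 Sox2-EGFPhigh+ cells and 25.7 and 20.9 in E16 Sox2-EGFP- cells. It was among the highest peaks of every list, and the cell types overlapped. The Cdk8 region held the start of the miRNA gene AC113316.1 and the Txndc11 region that of mmu-mir-689-2, in an intron of Zc3h7a. The Zfp869 region, the seventh in rank and with an NFY site printed above, was lower at 8.26 to 12.4.

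Several of these shared sequence with other places. In the summit windows, words of 32 bases were counted on the autosomes, X and Y. A region was called multi-copy where at least 50% of its words occurred more than once there. Copies in unplaced or mitochondrial sequence were not counted, so a low value does not show that a sequence is unique. This held for 12 of the 605 regions (1.98%) and 0.46% of the other distal regions. Within samples the mean percentage of such words was 3.14% against 1.29% ± 0.171, higher in 9 of 9 samples (exact sign-flip permutation p = 0.003906, n = 9). The value was 46.8% at Filip1l, 51.1% at Pxmp3, 87.2% at Txndc11 and 48.9% at Limd1, but 4.3% at Axin2 and 17.0% at Cdk8. Reads of a repeated sequence can be placed at any of its copies, so the height of such regions is uncertain, and the part of this in their rank was not tested.

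In all, 25 of the 605 regions (4.13%) fell into 10 families that share at least 200 bp at 80% identity or more. The Filip1l region shared 257 bp at 98.1% identity with a region nearest to 4930546C10Rik, and the Jarid2 region belonged to the same family. The Pxmp3 region shared 314 bp at 95.2% with the Ccdc3 region (chr2:5300012-5300514), which had a mean rank at the 96.29th percentile. Pairs of zinc finger and Scd loci made up others, such as Scd2 and Scd3, desaturase genes of lipid synthesis that lie side by side. The lines below give stretches of 100 bp shared by the highest families, with the bases that differ within a pair in capitals. Both stretches resemble large-subunit ribosomal RNA as known from textbooks, but no ribosomal RNA reference was aligned here.
Filip1l, chr16:57391416-57391515, plus strand: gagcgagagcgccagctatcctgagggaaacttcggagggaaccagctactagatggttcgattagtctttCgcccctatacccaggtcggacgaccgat
Jarid2, chr13:44965195-44965294, plus strand: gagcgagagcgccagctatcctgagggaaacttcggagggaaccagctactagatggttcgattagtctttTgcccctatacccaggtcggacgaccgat
Pxmp3, chr3:5860447-5860546, plus strand: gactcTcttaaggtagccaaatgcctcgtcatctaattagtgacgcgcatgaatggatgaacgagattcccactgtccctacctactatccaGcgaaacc
Ccdc3, chr2:5300172-5300271, minus strand: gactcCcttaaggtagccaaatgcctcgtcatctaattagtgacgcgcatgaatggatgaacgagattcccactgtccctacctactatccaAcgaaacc

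**Figure D5:**
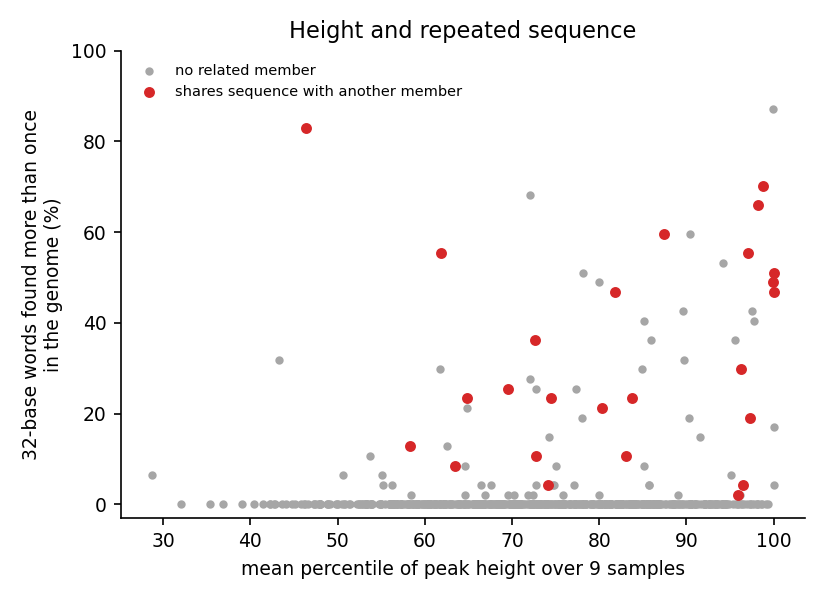
Mean percentile of −log10 p over 9 samples, labelled as peak height, against the percentage of repeated 32-base words, for each of the 605 regions. Words were counted on the autosomes, X and Y, and the 25 regions that share sequence with another of them are in red. Filip1l, Pxmp3, Limd1 and Txndc11 sit at the right edge with 46.8% to 87.2% of their words repeated, and most regions sit at 0%.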

How the data were processed

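ATAC-seq peak lists of 9 samples were used, 6 of Sox2-EGFPhigh+ and 3 of Sox2-EGFP- cells. The authors' peaks come from MACS2, run for each sample by itself on reads that Bowtie2 placed on mm9, with Trim Galore used before that step. PCR copies (Picard) and the mitochondrial genome (SAMtools) did not enter. The authors then dropped peaks not met in a further sample of that type, so each list depends on its partners. The deposited fold enrichment is the ratio of the summit pileup to the local background. The deposited −log10 p and −log10 q are those of MACS2 within the sample, the deposited score is derived from the −log10 q and was not used, and the deposited summit offset placed the 400 bp windows. The lists hold no reads, so the depth per peak is unknown.

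The members, motifs and gene lists were chosen with earlier results of these data known. Lists of 286921 peaks in all were merged with bedtools 2.31.1 rules in Python 3.11.15, with 49470 protein-coding transcripts of GENCODE for mm9 on the autosomes. Motifs came from the study's printed motif table, with 1 mismatch per 6 positions. Repeats were not annotated, so copies of 32-base words taken every 8 bp stood in for the planned repeat share, and shared stretches were found with BLAST 2.17.0. Sequence shares were compared within samples by exact two-sided sign-flip permutation tests. Heights were compared with limma 3.58.1 (R 4.3.3) on log2 fold enrichment with Benjamini-Hochberg adjustment, tested on simulated data. Replicates are separate litters. Named regions were the 10 highest, the best CTCF matches, noncoding starts by rank and type, up to 8 with the smallest adjusted p per comparison and direction, regions near listed genes, and those at the limits of the rule. Some motif matches, regions and sequences are not reported here.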

Additional observations from a re-analysis of the deposited data

Results flagged for a closer look

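The LEF1 share at E12 replicate 1 stood apart from the other samples. There the share of peaks with a LEF1 match in the 605 regions was 2.03 percentage points below that of the other distal regions (-2.028), and the next sample was at -3.329. It was found among 58 groups of sample values examined for such a gap, of which chance would give about 1 in 20. The X chromosome, which was left out of the comparisons, held 14 regions of 1273 that met the same rule, beside 605 of 68078 on the autosomes.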

How the results depend on the processing

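The number of regions in all lists depended on the peak lists. It was 233 with peaks of −log10 q of at least 5, 89 with the 5000 highest peaks of each list, and between 605 and 1306 when a sample was left out, the last without E12 replicate 2. CpG-island-like share, GC content and noncoding starts kept their direction and passed the test in every alternative run for them. The distance to the nearest start was lower except among CpG-island-like regions, where the log10 difference was 0.09418. The CTCF share difference was 0.4312 with the 5000 highest peaks, -0.2304 with 2 mismatches, -2.134 with 4, -0.532 in 200 bp and -0.584 in whole regions. These alternatives passed the test where the reported difference did not, and the cause was not tested.

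Without mismatches 12 motifs were more frequent, and some single motifs changed sign. Then BORIS was at -0.03629, NF1 -0.08352, EBF -0.1216, RFX -0.007768, X-box -0.02903, GRHL2 -0.005105, REST-NRSF -0.0004642, Ronin -0.01332, GFY-Staf -0.003443, Oct4 0.4124 and TATA-Box 0.01972 percentage points. Exact matches to the long motifs were absent from the 605 regions and rare in the others. The negative signs of those motifs therefore cannot be read as a reversal. Leaving out a sample gave -0.07323 to 1.037 for NF1 and -0.01004 to 0.5353 for GRHL2, both lowest without E12 replicate 2. The lower rank of regions with a CTCF match was -7.42 percentile points with −log10 p as height, which missed the threshold, and 2.83 in the other direction with the weight matrix.

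The count of regions higher in Sox2-EGFPhigh+ cells was 3 without normalization, against 4 of the 4970. There the median over all 4970 regions moved to a log2 of 0.30 and that of the 605 regions was 0.40. With −log10 p as height it was 59, with 5 lower, against 128 and 17 of the 4970. It was 16, with 2 lower, in a fit of the 605 regions alone. Without the separate batch it was 12, against 18 of the 4970. At E16 alone it was 31, with 1 lower, against 65 and 3 of the 4970. Leaving out a sample gave between 11 and 84 higher and between 0 and 9 lower, against 19 to 188 and 0 to 50 of the 4970. The Clic4, Epha7 and Tmem229b regions passed in 16 of 16 alternatives. Ccrn4l, Gm9887, Serbp1 and Gm10240 lost the call without normalization (adjusted p from 0.06632 to 0.1195 by limma), and Nedd4l did so there and without the E14.5 Sox2-EGFP- sample. With the replicate number as a replicate block, 62 were higher and 3 lower between cell types, against 115 and 18 of the 4970. Between stages the block gave 5 higher and 4 lower, against 54 and 20 of the 4970. The labels do not say whether a number marks a shared litter, and the 2 E16 pairs gave a correlation of 0.1718. Between stages the counts higher and lower were 1 and 1 with median centring, against 12 and 3 of the 4970. They were 0 higher with −log10 p as height, against 7 of the 4970, and 1 lower in the fit of the 605 regions alone. Leaving out a sample gave 0 to 14 higher and 0 to 20 lower, against 0 to 122 and 0 to 127 of the 4970. Peak lists without reads limit the precision of every height, and a peak missing from a short list is not closed chromatin.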
